A study of Mus musculus with 4 samples.

Results

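The adhesion G protein-coupled receptor (adhesion GPCR) genes were defined as every gene whose symbol starts with Adgr in the gene table, and this rule returned 27 of 32285 genes. They fall into the subfamilies Adgra, Adgrb, Adgrd, Adgre, Adgrf, Adgrg, Adgrl and Adgrv. The rule used no measured value. Their messenger RNA was measured by single-nucleus RNA sequencing (snRNA-seq) of the mouse lateral septum (LS), a forebrain region, in which each RNA molecule is counted once through its unique molecular identifier (UMI). The 4 libraries were C57J 1, C57J 2, nude and BALB/c, each from microdissected LS of 3 pooled male mice aged 6 to 8 weeks.

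C57J 1 and C57J 2 came from wildtype C57J mice (given as C57BL/6JNifdc in the labels) and are labelled batch 1 and batch 2, respectively. The nude library came from T-cell-deficient Foxn1 knockout mice of BALB/c descent and the BALB/c library from BALB/c mice, both in batch 2. Nude and BALB/c thus share a strain background that differs from C57J, and T-cell state, batch 1 and strain cannot be fully told apart with 4 libraries. Each library is a pool, so the spread between mice is not known and every p-value measures only the spread between these libraries, which may be partly technical. The libraries held 72912922 to 125998527 UMIs in 12558 to 17025 barcodes, of which 49425 nuclei were kept, with median depths of 5403 (C57J 1), 4124 (C57J 2), 4548 (nude) and 8416 UMIs (BALB/c). Pairs of libraries shared 29 to 63 barcodes. The adhesion GPCR genes took 667876, 478243, 565481 and 763387 UMIs of all barcodes of C57J 1, C57J 2, nude and BALB/c, and every set of 4 values below keeps this order.

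Nuclei were clustered without the adhesion GPCR genes and without 36 ligand and partner genes, so that the levels of these genes did not shape the clusters. The class names are rebuilt from marker genes and stand for marker-like classes (astrocyte-like, microglia-like and so on). They comprised LS, striatal, Lhx6, cholinergic and Slc17a6 glutamatergic (here Ebf2) neurons, neuroblasts, dividing nuclei, Dkk3 astrocytes, other astrocytes, oligodendrocyte precursor cells (OPCs), newly forming oligodendrocytes (OLs), OLs, microglia and vascular nuclei. The Pde11a, Onecut2, Tshz1 and Gpr149 neurons had no fixed marker list and are called by a leading gene. Slc17a6 itself was among the leading genes of the Onecut2 neurons, so the Ebf2 neurons are not the only class with it. The Ebf2 neurons also had the highest score of all clusters for the Slc17a7 glutamatergic markers (0.643, against 0.849 for the Slc17a6 list). The score is the mean marker level relative to the highest cluster, and both lists hold Tbr1. Of the 419 Gpr149 neurons, 318 came from C57J 1. The levels below are counts per 1000000 UMIs of the class in a library, abbreviated CPM.

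Adhesion GPCRs carry a long extracellular region with adhesion domains, which is cut from the membrane-spanning part at an autoproteolysis site in most of them and can expose a tethered agonist. They bind ligands on neighbouring cells or in the extracellular matrix. In the brain, the latrophilins (Adgrl) and the brain-specific angiogenesis inhibitors (Adgrb) are known at synapses, while other members are known from glia, myelination, phagocytes and blood vessels.

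The members were very unequal. Over the named classes, Adgrb3 (ENSMUSG00000033569, chr1:25067476-25829707, minus strand) gave 63.4% of all adhesion GPCR UMIs and Adgrl3 (ENSMUSG00000037605, chr5:81020138-81825133, plus strand) gave 28.5%. Both genes are long, at 762 and 805 kb (annotation GENCODE vM21 on GRCm38, the assembly called mm10), and reads from introns of nuclear RNA may be part of the counts, since the sources used here do not say how intronic reads were treated. Per kb of gene, the levels in LS neurons were 6.37 CPM for Adgrb3, 2.70 for Adgrl1, 2.49 for Adgrl3, 1.57 for Adgrb1, 1.55 for Adgrb2, 0.707 for Adgra1 and 0.662 for Adgrl2. Per kb of exon, the same genes had 262, 13.2, 113, 16, 9.02, 5.76 and 8.16 CPM. Adgrb3 stood highest on both scales, whereas the place of Adgrl3 among the others depended on the scale. At the other end, Adgrf3, Adgrg5, Adgrg7, Adgrg4, Adgrf1 and Adgre4 had between 16 and 70 UMIs in all named nuclei together.

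Summed over all 27 genes, the level was highest in LS neurons at 7365 ± 208 CPM (mean ± SD, n = 4 libraries) and lowest in newly forming OLs at 2528 ± 428 and OLs at 2544 ± 945 CPM. Without Adgrb3 and Adgrl3 the order changed. The remaining 25 genes summed to 1158 ± 674 CPM in vascular nuclei, 1055 ± 72 in Dkk3 astrocytes and 969 ± 115 in dividing nuclei, against 506 ± 24.9 in LS neurons.

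**Figure D1:**
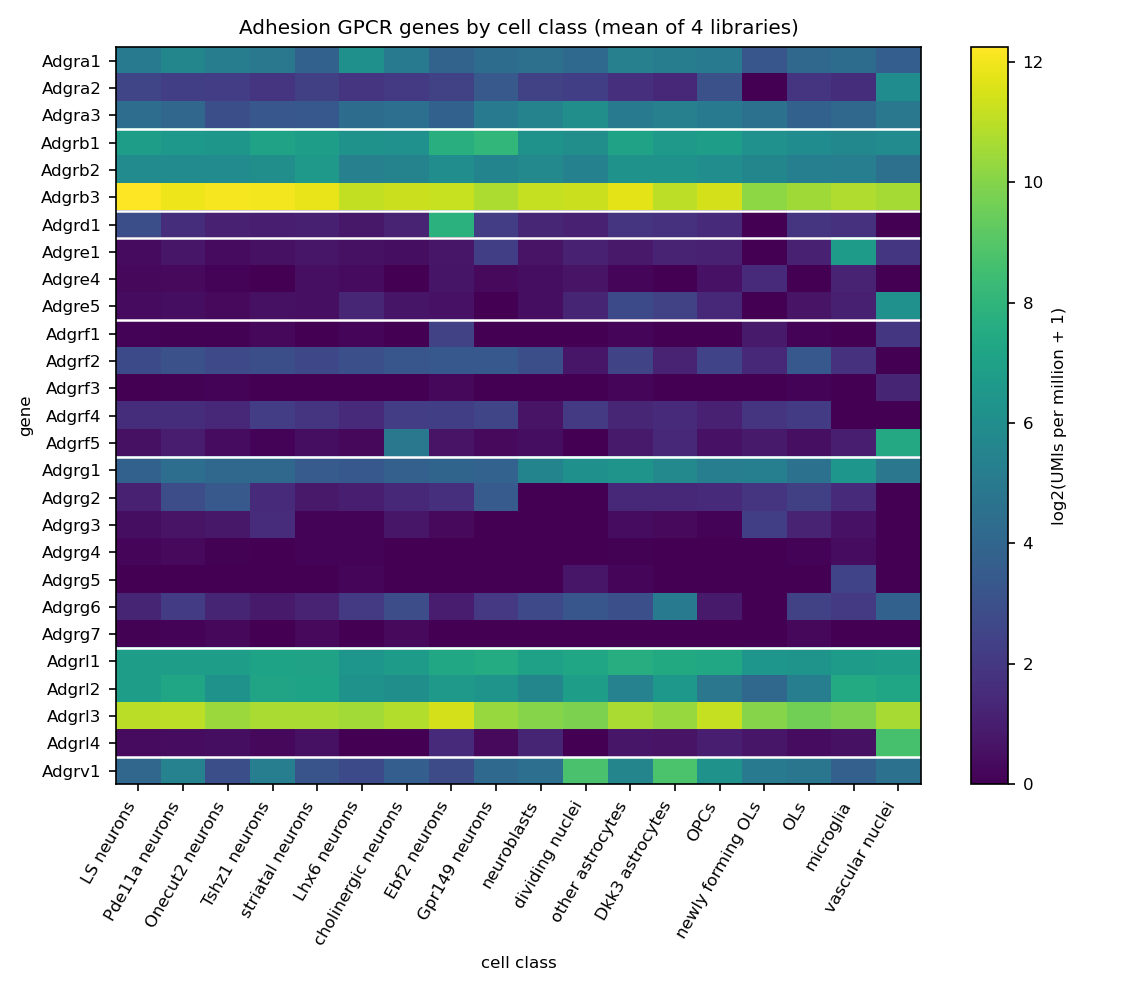
Mean level of each of the 27 adhesion GPCR genes (rows, white lines between subfamilies) in 18 cell classes (columns), as log2(CPM + 1) of the mean over the 4 libraries. Adgrb3 and Adgrl3 are bright in every class, Adgrb1, Adgrb2, Adgrl1 and Adgrl2 are intermediate in nearly all, and single bright cells mark Adgrl4 and Adgrf5 in vascular nuclei, Adgre1 in microglia and Adgrd1 in Ebf2 neurons.

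To ask in which classes each gene was high or low, each of 18 classes was compared within libraries with the mean log2 level of the other classes. The test was the edgeR quasi-likelihood F test, with Benjamini-Hochberg adjustment over all genes tested. Classes with few or no UMIs of a gene pull that mean of logs down. A class called higher can therefore lie below the plain mean CPM of the others, as LS neurons did for Adgrd1. A call needed a log2 fold change beyond 1 in either direction together with an adjusted p under 0.05. Of the 27 members, 19 passed the filter on low counts, and a gene that is read in 1 class can pass through that class alone, so the counts below describe the genes tested and not the whole family. Among their 342 gene and class pairs, 47 were called higher and 24 lower, against 9.3% higher and 5.98% lower over all genes tested. DESeq2, for which the share over all genes is not given, called 41 higher and 33 lower. The calls were spread over 18 of the 19 genes, Adgrl1 being the exception. In LS neurons the median log2 fold change was 0.23 over the 19 members and -0.025 over all 14520 genes tested.

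The Adgrb genes, known as BAI receptors, were read in every class. Adgrb3 encodes a receptor for the secreted C1q-like proteins. Its levels in LS neurons were 4879, 4901, 5032 and 4612 CPM. They lay above those of Onecut2 neurons, the next class, at 4531, 4482, 4391 and 4044 CPM, in every library. LS neurons were called higher for 2 of the 19 members tested (Adgrb3 and Adgrd1), against 9.18% of all genes tested. Adgrb3 had a log2 fold change of 1.16 ± 0.12 (SE), adjusted p = 1.39e-13 by edgeR there, and was called lower in vascular nuclei (-1.32 ± 0.17) and newly forming OLs (-1.03 ± 0.15). The levels of Onecut2 and Tshz1 neurons, which follow in the order, overlapped between libraries.

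Adgrb1 encodes a receptor that binds phosphatidylserine on dying cells and acts through the Elmo1 and Dock1 proteins, and that is also found at excitatory synapses. It was highest in Gpr149 neurons, at 237, 255, 313 and 291 CPM, followed by Ebf2 neurons at 207, 207, 192 and 199 CPM. Neither range overlapped with that of LS neurons, at 127, 104, 108 and 123 CPM. The calls were 1.43 ± 0.15 (SE), adjusted p = 4.32e-12 in Gpr149 neurons and 1.27 ± 0.10 (SE), adjusted p = 1.04e-16 in Ebf2 neurons (edgeR log2 fold changes). In microglia, a phagocytic cell type, Adgrb1 was instead at 69.6, 62.1, 46.3 and 28.5 CPM and was called lower (-1.14 ± 0.17).

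Adgrb2, the least studied of these genes, was highest in striatal neurons at 102, 91.4, 97.7 and 90.8 CPM, a range clear of the next class. Its log2 fold change there was 1.06 ± 0.10 (SE), adjusted p = 1.62e-14 by edgeR, and 0.90 when libraries were scaled by their totals without TMM, which is under the fold limit. Adgrb2 was called lower only in vascular nuclei, where it rested on 11 UMIs.

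The latrophilins Adgrl1, Adgrl2 and Adgrl3 are adhesion receptors of synapses that bind teneurins and FLRT proteins. Adgrl3 was highest in Ebf2 neurons at 2769, 2766, 2529 and 3303 CPM, above OPCs at 2302, 2164, 2308 and 2507 CPM in each library and above LS neurons at 1988, 2008, 2063 and 1955 CPM. The log2 fold change of Adgrl3 in Ebf2 neurons was 1.13 ± 0.12 (SE), adjusted p = 8.73e-13 by edgeR, and it came to 0.98, under the fold limit, without the BALB/c library. OPCs, Pde11a neurons and LS neurons followed each other in the order of Adgrl3 with overlapping ranges.

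Adgrl1 was the most even of the genes tested and received no call. Its highest class was other astrocytes, with 223, 206, 209.5 and 151 CPM against 114, 100.3, 111 and 126 CPM in LS neurons. The astrocyte values were higher in every library, with BALB/c the lowest of them, and the log2 fold change of 0.73 ± 0.09 (SE), adjusted p = 2.31e-10 by edgeR stayed under the fold limit.

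Adgrl2 varied more. It was called higher in Pde11a (1.04 ± 0.15), striatal (1.05 ± 0.17) and Tshz1 neurons (1.03 ± 0.18) and lower in newly forming OLs (-2.21 ± 0.48), OPCs (-1.55 ± 0.24) and OLs (-1.13 ± 0.21), all as log2 fold changes. In OPCs it was at 27.4, 33.7, 34.3 and 15.5 CPM and in Pde11a neurons at 148, 157, 124 and 166 CPM, ranges far apart. In microglia Adgrl2 was at 127, 83.5, 151 and 346 CPM. The BALB/c library stood well above the other libraries there, and the call of 1.21 ± 0.19 (SE), adjusted p = 2.69e-07 (edgeR) fell to a log2 fold change of 0.36 without it.

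UMIs of neuronal genes were also found in glial nuclei, which bears on any low or moderate level there. Snap25, a neuronal synaptic gene, was at 38.7% (range 21.2% to 45.6%) of its LS neuron level in other astrocytes, 44.6% (range 24% to 58.1%) in OLs and 59.2% (range 34.5% to 71.1%) in microglia, and Rbfox3 at 14.3% (range 7.66% to 18%), 16.3% (range 7.51% to 21.3%) and 22.3% (range 9.33% to 29%). BALB/c, the deepest library, had the lowest of these percentages in each class. Against that background, Adgrb3 was at 70.4% (range 61.5% to 74.6%) of its LS neuron level in other astrocytes, 57.3% (range 56% to 58.9%) in OPCs, 29.3% (range 17.4% to 43.3%) in OLs and 36.5% (range 16.4% to 49.9%) in microglia. The OL and microglia percentages of Adgrb3 lay below those of Snap25 in every library, while those of other astrocytes lay above both neuronal genes in every library. How far RNA from neurons enters these counts, or those of other members in glia such as Adgrb1 in microglia, was not tested. The percentages in OPCs were 116% (range 108% to 128%) for Adgrl3 and 138% (range 97.3% to 156%) for Adgrl1, and in other astrocytes 177% (range 119.6% to 206%) for Adgrl1. After thinning each nucleus to 1000 UMIs, Adgrb3 had a UMI in 97.7% (95% interval 97.5% to 97.9%) of LS neurons, 77% (95% interval 74.6% to 79.4%) of microglia and 70.2% (95% interval 69% to 71.5%) of OLs (95% intervals of the exact Clopper-Pearson kind, for counting error alone). Without thinning, 20968 of 20970 LS neurons had a UMI, and the shares were 91.8% of microglia and 93% of OLs, at median depths of 7924, 1648 and 2343 UMIs.

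**Figure D2:**
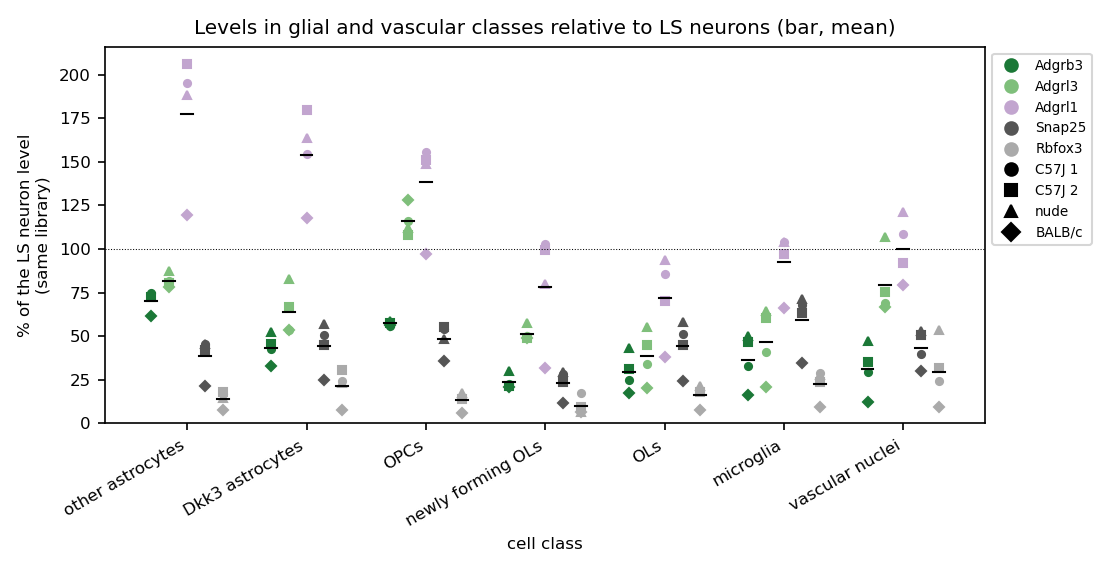
Level of Adgrb3, Adgrl3, Adgrl1 and of the neuronal genes Snap25 and Rbfox3 in glial and vascular classes as a percentage of the level in LS neurons of the same library. Symbols are libraries and bars are means. Adgrl1 and Adgrl3 in OPCs lie at or above 97.3% in each library, whereas Rbfox3 stays at or below 17.4% there, and the BALB/c diamonds are lowest for Snap25 in all 7 classes.

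Several members were restricted to few classes, first of all to vascular nuclei. Adgrl4 (ENSMUSG00000039167, chr3:151437887-151545086), also known as ELTD1, is a latrophilin-related receptor of endothelial cells that takes part in vessel sprouting. Adgrf5 (ENSMUSG00000056492, chr17:43360451-43459557), also known as GPR116, is known from lung surfactant control and from endothelium. Their promoters are printed because both genes were highest in the same nuclei and because ETS-family factors, which bind a core of GGAA, are general regulators of endothelial genes. The sequences are from RefSeq (GRCm38.p6), 250 bases before to 50 bases after an annotated start, and capitals mark the letters AGGAAG, an ETS-type motif, or CTTCCT, the same motif on the other strand.
Adgrl4, chr3:151437632-151437931, plus strand: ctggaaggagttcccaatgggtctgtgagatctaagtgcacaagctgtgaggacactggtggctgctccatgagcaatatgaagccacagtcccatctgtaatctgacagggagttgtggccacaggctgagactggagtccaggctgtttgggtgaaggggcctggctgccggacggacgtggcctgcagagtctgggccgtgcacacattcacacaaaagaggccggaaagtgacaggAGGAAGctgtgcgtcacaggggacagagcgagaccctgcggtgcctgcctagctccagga
Adgrf5, upstream start, chr17:43360181-43360480, plus strand: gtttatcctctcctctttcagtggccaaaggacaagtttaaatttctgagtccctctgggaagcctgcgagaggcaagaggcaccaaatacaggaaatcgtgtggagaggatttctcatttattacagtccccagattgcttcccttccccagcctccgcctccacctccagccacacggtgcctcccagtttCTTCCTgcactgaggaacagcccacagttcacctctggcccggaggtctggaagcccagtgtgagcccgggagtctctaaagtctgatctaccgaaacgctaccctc
Adgrf5, downstream start, chr17:43389216-43389515, plus strand: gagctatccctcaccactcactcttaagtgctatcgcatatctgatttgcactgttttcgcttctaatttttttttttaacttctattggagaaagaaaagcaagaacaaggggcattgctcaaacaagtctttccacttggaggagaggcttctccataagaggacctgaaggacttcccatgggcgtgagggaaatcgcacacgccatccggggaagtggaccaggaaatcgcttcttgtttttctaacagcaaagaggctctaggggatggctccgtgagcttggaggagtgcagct
The Adgrl4 window held 1 match at base 241 on the plus strand, the upstream Adgrf5 window held 1 match at base 194 on the minus strand and the downstream window held 0, counted from 1 at the 5′ end. The motif was found in 11613 of 32851 windows of this length (35.4%), so its presence does not single out these genes.

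The vascular class held only 27, 48, 12 and 52 nuclei, of which 13, 21, 1 and 2 were endothelial nuclei, so the endothelial makeup of this class differed between libraries. Adgrl4 was at 905, 540.3, 45 and 149 CPM, from 73, 47, 1 and 27 UMIs. The nude value rested on a single UMI, and all 4 values lay above those of every other class compared. The log2 fold change was 9.86 ± 0.31 (SE), adjusted p = 2.11e-34 by edgeR. In the endothelial nuclei alone Adgrl4 was at 1384, 1145, 691 and 1395 CPM, and mural nuclei and fibroblasts held 0 UMIs in each library. There the BALB/c value came from 2 nuclei and the nude value from 1 UMI in 1 nucleus. The part of the endothelial makeup in the library differences was not tested. After thinning, Adgrl4 had a UMI in 62.2% (95% interval 44.8% to 77.5%) of endothelial nuclei and 0.00954% (95% interval 0.00116% to 0.0344%) of LS neurons, and before thinning in 89.2% and 0.219% at median depths of 1722 and 7924 UMIs.

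Adgrf5 in vascular nuclei was at 347, 241, 0 and 77.4 CPM, from 28, 21, 0 and 14 UMIs. The count of 0 in nude, which allows up to 3 UMIs, came with its 1 endothelial nucleus. The log2 fold change was 7.81 ± 0.39 (SE), adjusted p = 2.08e-26 by edgeR, and endothelial nuclei alone had 493, 463, 0 and 672 CPM. Adgrf5 also had a neuronal class. In cholinergic neurons, a type of the neighbouring medial septum, it was at 43.9, 32, 17.8 and 20.2 CPM, and in LS neurons at 0.584, 0.528, 0.553 and 0.250 CPM. Every cholinergic value exceeded every LS neuron value, with a call of 5.51 ± 0.29 (SE), adjusted p = 3.91e-25 (edgeR). The 5 endothelial markers Flt1, Cldn5, Pecam1, Mecom and Slco1a4 summed to 4.07 (range 1.87 to 7.56) CPM in cholinergic neurons, with Cldn5 at 0, and to 3.77 (range 2.91 to 4.21) in LS neurons, and Adgrl4 had 0 UMIs in cholinergic neurons. The thinned share of cholinergic neurons with an Adgrf5 UMI was 1.57% (95% interval 0.718% to 2.95%), against 0.0477% (95% interval 0.0229% to 0.0877%) in LS neurons. The unthinned shares were 15.7% and 0.381%, at median depths of 7155 and 7924 UMIs.

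Adgre5 and Adgra2 were highest in vascular nuclei too, at lower counts. Adgre5, or CD97, is a receptor of leukocytes and other cells that binds Cd55 and Thy1. It was at 149, 57.5, 45 and 33.2 CPM from 12, 5, 1 and 6 UMIs, with its UMIs in both endothelial and mural nuclei, and had a log2 fold change of 6.62 ± 0.61 (SE), adjusted p = 6.2e-14 by edgeR. Other astrocytes were called as well (3.22 ± 0.35), at 4.45, 3.76, 6.95 and 7.38 CPM. Adgra2, or GPR124, is needed with Reck for Wnt7a and Wnt7b signals that build brain vessels. It was at 62, 57.5, 0 and 122 CPM from 5, 5, 0 and 22 UMIs, with a log2 fold change of 4.69 ± 0.43 (SE), adjusted p = 4.06e-14 by edgeR. Of the BALB/c UMIs of Adgra2, 16 came from its 32 fibroblasts and 1 from its 2 endothelial nuclei, whereas in C57J 1 all 5 came from endothelial nuclei. Across the vascular class 5 of the 19 members were called higher, against 8.62% of all genes tested, the fifth being Adgrg6 with 8 UMIs. Adgra2 was called lower in newly forming OLs, where it had 0 UMIs in every library, so the size of that difference is not given.

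**Figure D3:**
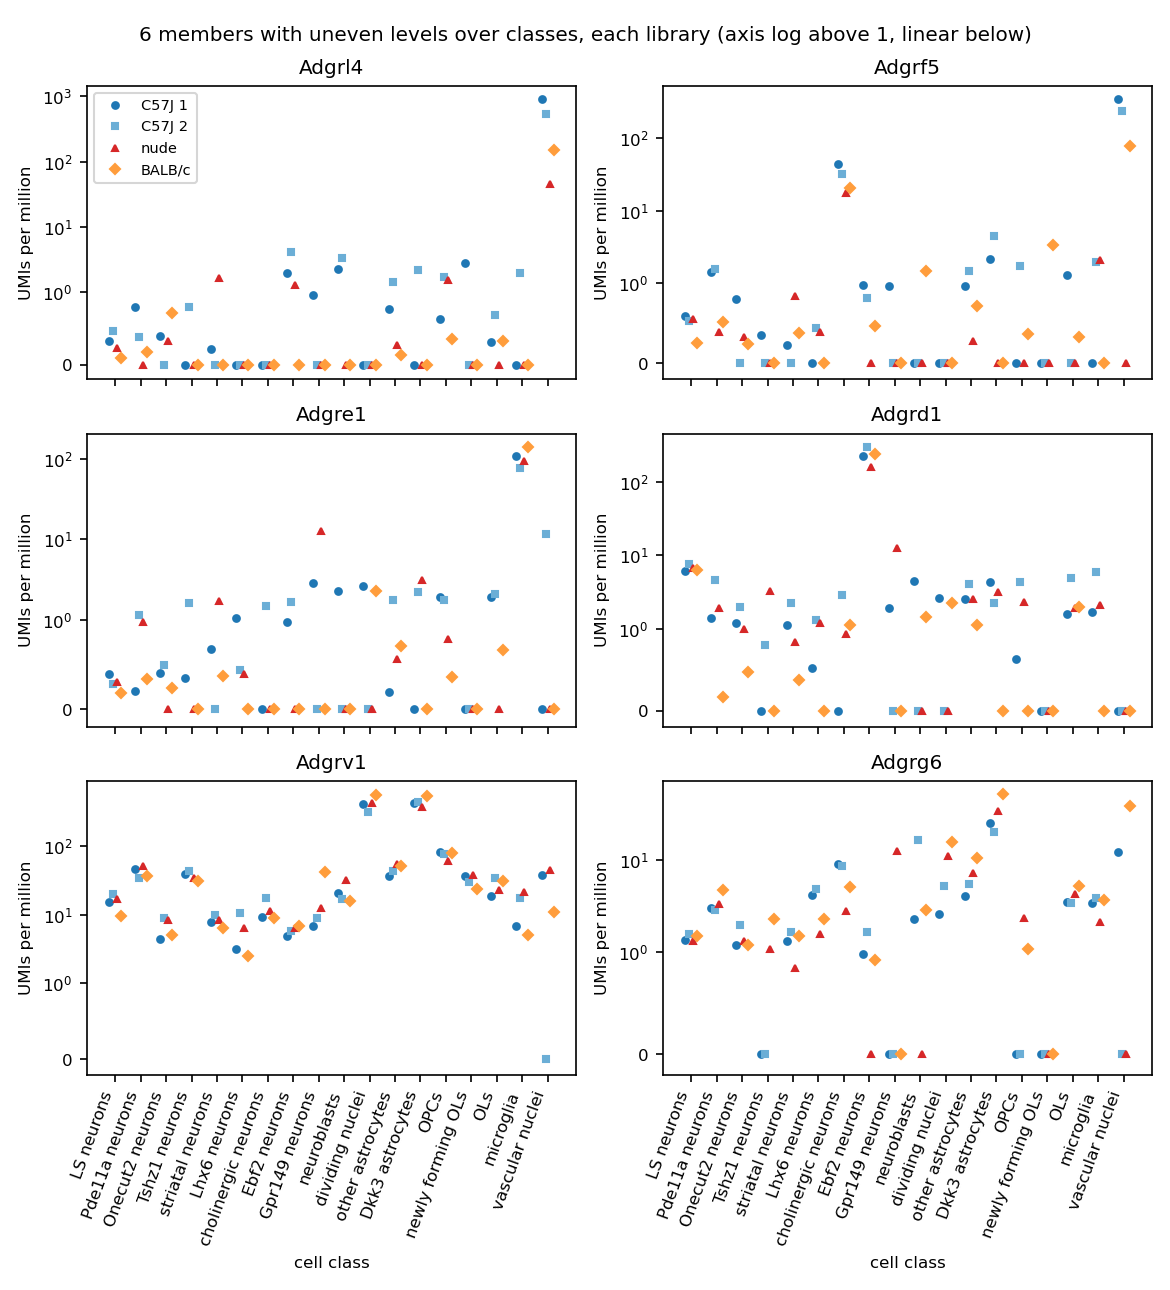
Level (CPM, logarithmic above 1 and linear below) of Adgrl4, Adgrf5, Adgre1, Adgrd1, Adgrv1 and Adgrg6 in each of 18 cell classes, with 1 symbol per library. Adgrl4 and Adgrf5 stand out in vascular nuclei, Adgrf5 also in cholinergic neurons, Adgre1 in microglia with 75.7 CPM or more in each library, Adgrd1 in Ebf2 neurons with 159 CPM or more, and Adgrv1 in both dividing nuclei and Dkk3 astrocytes.

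The Adgre genes are receptors of myeloid cells. Adgre1 (ENSMUSG00000004730, chr17:57358691-57483527) encodes a surface antigen widely used to mark macrophages and microglia. It was at 109, 75.7, 92.5 and 140.2 CPM in microglia from 64, 39, 44 and 113 UMIs. All 4 values lay above those of every other class compared, and the log2 fold change was 7.29 ± 0.25 (SE), adjusted p = 1.89e-35 by edgeR. A UMI of Adgre1 was found in 9.69% (95% interval 8.09% to 11.5%) of thinned microglia and in 0.0286% (95% interval 0.0105% to 0.0623%) of LS neurons, and before thinning in 16.7% and 0.243%. The 4 border macrophage markers summed to 14.2 (range 6.31 to 28.8) CPM in this class and the 6 microglia markers to 5468 (range 4225 to 7474) CPM. Adgre4, another myeloid member, had 70 UMIs in all and 1 in the class of its highest mean.

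Microglia were also the class in which Adgrg1 was highest, at 71.3, 75.7, 79.9 and 114 CPM, nearly level with other astrocytes at 76.8, 61, 70.3 and 114 CPM. Adgrg1 (ENSMUSG00000031785, chr8:94974751-95014217), or GPR56, acts in cortical development and in OPC proliferation and binds collagen III and transglutaminase. The microglia and astrocyte ranges overlapped, and both were called higher, with 1.68 ± 0.19 (SE), adjusted p = 7.31e-12 and 1.8 ± 0.12 (SE), adjusted p = 7.24e-21 (edgeR log2 fold changes). Dividing nuclei (1.29 ± 0.26) and Dkk3 astrocytes (1.09 ± 0.22) were called higher as well, and Lhx6 (-1.45 ± 0.22), striatal (-1.27 ± 0.22) and cholinergic neurons (-1.03 ± 0.25) lower. OPCs were not called for Adgrg1. Adgrg5 had 10 of its 17 UMIs in microglia, at 1.7, 0, 12.6 and 3.72 CPM, and was below the filter. Microglia were called higher for 3 members, against 12.8% of all genes tested.

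Adgrd1 (ENSMUSG00000044017, chr5:129096750-129204599), or GPR133, was high in 1 neuron class. In Ebf2 neurons, named from the list of Slc17a6 glutamatergic markers, it was at 221, 296, 159 and 238 CPM from 226, 362, 124 and 518 UMIs. In LS neurons, the next class, it was at 6.02, 7.54, 6.79 and 6.37 CPM. The ratio of the class means was 34.2, and no library of any other class reached the Ebf2 range. Onecut2 neurons, with Slc17a6 among their leading genes, had a mean of 1.16 CPM of Adgrd1. The log2 fold change was 7.86 ± 0.17 (SE), adjusted p = 3.64e-44 by edgeR for Ebf2 neurons, and LS neurons were called too (2.51 ± 0.28). A UMI of Adgrd1 was found in 19.7% (95% interval 17.3% to 22.3%) of thinned Ebf2 neurons and in 0.288% (95% interval 0.161% to 0.474%) of OLs, with 51.5% and 0.586% before thinning at median depths of 4217 and 2343 UMIs. Ebf2 neurons also held 25 of the 47 UMIs of Adgrf1, the receptor of the lipid synaptamide, at 1.95, 4.91, 3.84 and 6.44 CPM, too few to test. In all, 5 of the 19 members were called higher in Ebf2 neurons (Adgrd1, Adgrl3, Adgrb1, Adgrf2 and Adgrl4), against 6.33% of all genes tested, the Adgrl4 call resting on 8 UMIs.

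Adgrv1 (ENSMUSG00000069170, chr13:81095068-81633154, minus strand) is the longest adhesion GPCR protein, a part of the Usher syndrome complex of hair cells and photoreceptors. It was at 422, 436, 364 and 537 CPM in Dkk3 astrocytes and at 412, 311, 417 and 561 CPM in dividing nuclei, ranges that overlapped. OPCs followed at 80.9, 77, 59.3 and 79.3 CPM and other astrocytes at 36.9, 43.4, 53.6 and 51.5 CPM. The edgeR log2 fold changes were 4.25 ± 0.14 (SE), adjusted p = 3.06e-37 in Dkk3 astrocytes, 4.13 ± 0.16 (SE), adjusted p = 1.57e-33 in dividing nuclei and 1.78 ± 0.16 (SE), adjusted p = 2.9e-15 in OPCs. Adgrv1 was called lower in 6 classes, of which Lhx6 neurons were the lowest (-2.22 ± 0.27). Thinned shares of nuclei with a UMI were 31.6% (95% interval 28.5% to 34.8%) in Dkk3 astrocytes, 28.6% (95% interval 24.2% to 33.5%) in dividing nuclei, 6.14% (95% interval 5.1% to 7.32%) in OPCs and 1.22% (95% interval 0.685% to 2.01%) in microglia. Unthinned, they were 53%, 45.2%, 19.9% and 1.69%. The 42 ependymal nuclei (16, 20, 4 and 2) were too unevenly spread over libraries for a test. They had Adgrv1 at 501, 622, 979 and 895 CPM from 36, 29, 8 and 8 UMIs.

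Adgrg6 (ENSMUSG00000039116, chr10:14402583-14545659, minus strand), or GPR126, drives myelination by Schwann cells and binds laminin, collagen IV and prion protein. It too was highest in Dkk3 astrocytes, at 25.6, 20, 34.5 and 52.1 CPM from 12, 9, 11 and 50 UMIs. The values of nude and BALB/c were above those of the C57J libraries, with most of the UMIs from BALB/c, whose nuclei also lay mostly in other subclusters of this class (values with the background comparison). The log2 fold change over the other classes was 3.9 ± 0.32 (SE), adjusted p = 1.43e-16 by edgeR. It was called higher at lower levels in other astrocytes (1.66 ± 0.28) and cholinergic neurons (1.5 ± 0.44), and on 11 and 8 UMIs in dividing and vascular nuclei. Myelinating OLs had 3.5, 3.44, 4.34 and 5.27 CPM and no call. Dkk3 astrocytes were called higher for 4 members (Adgrv1, Adgrg6, Adgrg1 and Adgre5), against 12% of all genes tested, the Adgre5 call resting on 8 UMIs.

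The remaining Adgra, Adgrf and Adgrg genes differed less. Adgra1, or GPR123, was highest in Lhx6 neurons at 62.8, 70.6, 72.2 and 69.9 CPM, clear of Pde11a neurons at 48.2, 43.3, 52.4 and 50.4 CPM, and both were called, with 1.89 ± 0.11 (SE), adjusted p = 2.54e-23 and 1.19 ± 0.11 (SE), adjusted p = 2.82e-14 (edgeR log2 fold changes). Adgra3, or GPR125, was highest in dividing nuclei at 54.7, 51.8, 60.4 and 96.1 CPM, where the log2 fold change was 1.58 ± 0.21 (SE), adjusted p = 7.14e-09 by edgeR, and next in neuroblasts at 58.8, 33.5, 34.9 and 47.8 CPM, with overlapping ranges. It was called lower in Onecut2 (-1.55 ± 0.19), striatal (-1.14 ± 0.19) and Tshz1 neurons (-1.09 ± 0.21).

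Adgrg2, or GPR64, a receptor known from the epididymis, was called higher in Onecut2 neurons at 15.3, 4.41, 9.26 and 9.75 CPM (3.43 ± 0.33 (SE), adjusted p = 4.14e-13, edgeR) and in Pde11a neurons at 7.23, 6.93, 5.63 and 5.62 CPM (2.66 ± 0.34 (SE), adjusted p = 2.65e-09, edgeR). C57J 2 was lowest and C57J 1 highest in Onecut2 neurons. Its highest mean, in Gpr149 neurons, rested on 5, 1, 0 and 4 UMIs, and that call was lost without BALB/c. Adgrf2 was low, with class means from 0 CPM in vascular nuclei to 9.47 CPM in Gpr149 neurons. It was called higher in 6 classes, by log2 fold changes of 1.06 to 1.63. Its highest class mean was only 1.69 times the median class mean, and its lowest log2 fold change was -7.3. The calls are relative to a mean of logs that includes classes near 0, and do not show a rise of that size over a typical class. Its values in Gpr149 neurons were 9.62, 8.78, 12.5 and 6.94 CPM, where the log2 fold change was 1.53 ± 0.57 (SE), adjusted p = 0.0613 by edgeR. Adgrf4 had 641 UMIs and Adgrg3 143, with 8 and 5 in the class of their highest mean. Adgrf3, Adgrg4 and Adgrg7 had 1 UMI in theirs.

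In the annotation, 8 members overlapped another gene on the opposite strand, among them Adgra2 with Brf2 and Adgre5 with Ddx39, and whether counting used strand is not given in the sources used here.

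The 36 ligand and partner genes were read in the same fits. Over the 18 classes, 107 of their 558 gene and class pairs were called higher and 95 lower, the shares of all genes tested being those given above. The partners of receptors described above are given here. Tenm3, a teneurin bound by latrophilins, was at 7083, 6265, 5921 and 10784 CPM in Ebf2 neurons (3.87 ± 0.11 (SE), adjusted p = 1.37e-40, edgeR log2 fold change), the class in which Adgrl3 was highest. The other teneurins and the FLRT genes were highest in other classes. Tenm1 and Tenm2 had their highest means in Lhx6 neurons at 1466 and 9920 CPM (2.09 ± 0.13 and 2.14 ± 0.15), and Tenm4 in Tshz1 neurons at 2046 CPM (2.41 ± 0.13). Flrt1 was highest in OPCs (1.06 ± 0.13), Flrt2 in vascular nuclei (2.02 ± 0.21) and Flrt3 in striatal neurons (1.5 ± 0.11). In Ebf2 neurons, Tenm1 (1.41 ± 0.15) and Flrt2 (1.33 ± 0.16) were also called higher, and Tenm2, Tenm4, Flrt1 and Flrt3 were not called.

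C1ql1 and C1ql3, secreted ligands of Adgrb3, had their largest log2 fold changes in OPCs, C1ql1 at 103, 92.5, 75.7 and 124 CPM (5.15 ± 0.15 (SE), adjusted p = 1.18e-39, edgeR) and C1ql3 at 19.7, 19.9, 20.3 and 35.7 CPM (3.69 ± 0.22). Adgrb3 itself had no call in OPCs.

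Elmo1, which acts after Adgrb1 in engulfment, was at 2642, 1796, 1811 and 4423 CPM in microglia (2.83 ± 0.14), where Adgrb1 was called lower. Wnt7a and Wnt7b, whose signal needs Adgra2, were called higher in other astrocytes at 25.9, 27.2, 27 and 39.7 and 27.7, 20.5, 21.1 and 21.6 CPM (2.45 ± 0.17 and 3.75 ± 0.19), while Reck, the partner of Adgra2, had a log2 fold change of 0.68 ± 0.28 (SE), adjusted p = 0.084 by edgeR in vascular nuclei. Of the matrix ligands of Adgrg6, Lama2 was called higher in vascular nuclei (4.31 ± 0.31), Dkk3 astrocytes (3.61 ± 0.21) and other astrocytes (4.48 ± 0.16), and Col4a1 in vascular nuclei (3.08 ± 0.27). Celsr1, an adhesion GPCR without the Adgr symbol that acts in planar cell polarity, was at 61.8, 42.2, 78.4 and 116 CPM in Dkk3 astrocytes (5.45 ± 0.24), and Whrn, a partner of Adgrv1, was called higher in LS neurons (2.1 ± 0.09), where Adgrv1 had no call, and in microglia (2.45 ± 0.12), where Adgrv1 was called lower.

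The next comparison addressed heterogeneity within the LS neurons. Each of 11 LS neuron clusters, numbered and known by leading genes, was set against the mean log2 level of the other LS clusters within libraries, with the same limits. Of the 27 members, 16 passed the filter and 7 were called in at least 1 cluster. Of their 176 gene and cluster pairs, 11 were called higher and 13 lower, against 3.25% higher and 2.79% lower over all genes tested, and of the 319 pairs of the ligands and partners 17 were called higher and 11 lower. Adgrb1, Adgrb2, Adgrb3, Adgrl1 and Adgrl3, which are frequent in LS neurons, received no call in any cluster, and neither did Adgra2, Adgrf2, Adgrf4 and Adgrg1. The log2 fold changes of Adgrb3 ranged from -0.40 to 0.40.

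Adgrv1 had the largest log2 fold change of the calls. In LS25, led by Foxp2 and Plod2, it was at 143, 141, 58.8 and 79.1 CPM, in LS3, led by Otx2os1 and Esr1, at 39.6, 46.7, 56.1 and 25.2 CPM and in LS6, led by Ndst4 and Foxp2, at 34.6, 45.2, 33 and 21.5 CPM. The LS25 values lay above those of the other clusters in each library, and the C57J values of LS25 were above those of nude and BALB/c, a difference that was not tested within clusters. The edgeR log2 fold changes of Adgrv1 were 3.73 ± 0.16 (SE), adjusted p = 9.4e-24 in LS25, 2.06 ± 0.12 (SE), adjusted p = 1.14e-18 in LS3 and 1.87 ± 0.12 (SE), adjusted p = 2.77e-17 in LS6. Adgrv1 was called lower in LS4, LS5, LS7, LS8 and LS14, where no library exceeded 6.95 CPM. Thinned to 1000 UMIs, 11.9% (95% interval 9.1% to 15.2%) of LS25 nuclei had an Adgrv1 UMI, and 32.9% before thinning.

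Adgrl2 was low in LS13, led by Pax6 and Eya4, at 20.3, 24.8, 25.2 and 15.4 CPM, and in LS25 at 39.4, 41.2, 50.7 and 33.7 CPM, against 128, 121, 108 and 107 CPM in all LS neurons. Both clusters lay below the whole class in every library, with edgeR log2 fold changes against the other clusters of -2.31 ± 0.11 (SE), adjusted p = 1.06e-22 and -1.22 ± 0.12 (SE), adjusted p = 5.83e-11. Adgrd1 was highest in LS12, led by Sema3a and Tmem132c, at 17.6, 16.2, 21 and 11.3 CPM (1.75 ± 0.18 (SE), adjusted p = 7.93e-11, edgeR) and in LS17, led by Pde1c and Mob3b, at 11.6, 16.8, 17.6 and 11.9 CPM (1.64 ± 0.21 (SE), adjusted p = 9.72e-09, edgeR). It was called lower in LS4 (-2.0 ± 0.27), LS8 (-1.43 ± 0.28) and LS13 (-1.97 ± 0.41).

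Adgra1 was called lower in LS17, at 3.7, 9.86, 6.81 and 5.96 CPM (-2.16 ± 0.18 (SE), adjusted p = 4.02e-14, edgeR), and in LS14, led by Dach2 and Crhr2 (-1.63 ± 0.16), and higher in LS25 (1.06 ± 0.15). Adgra3 was called higher in LS17 (1.17 ± 0.13) and in LS4, led by Cpa6 and Col15a1 (1.02 ± 0.10), and lower in LS14 (-1.12 ± 0.19). LS17 thus held high Adgra3 and Adgrd1 and low Adgra1. Genes with few UMIs complete the list, Adgrg2 in LS13 at 5.8, 4.57, 5.82 and 2.51 CPM (2.87 ± 0.40) and LS12 (2.05 ± 0.41, lost without BALB/c), and Adgrg6 in LS5, led by Nxph1 and Pth2r, at 3.45, 5.58, 2.63 and 3.53 CPM (1.7 ± 0.21).

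**Figure D4:**
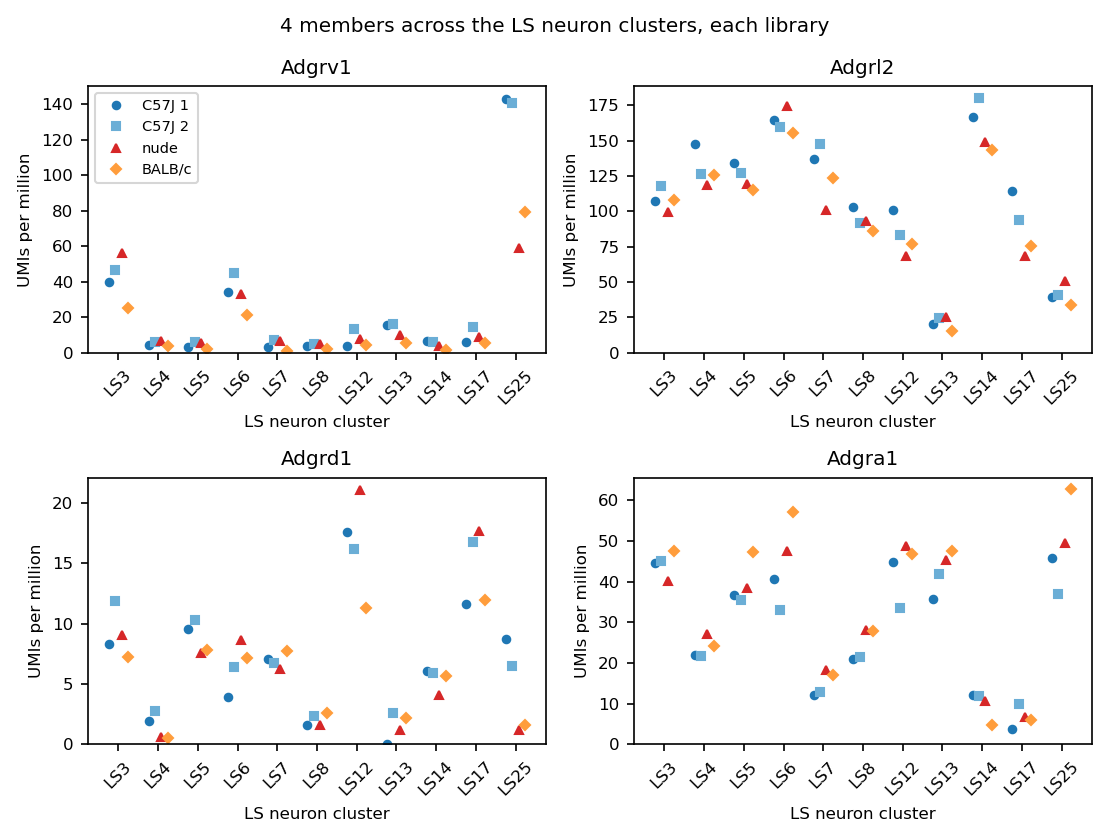
Level (CPM) of Adgrv1, Adgrl2, Adgrd1 and Adgra1 in 11 LS neuron clusters, with 1 symbol per library. Adgrv1 peaks in LS25 at 58.8 to 143 CPM, Adgrl2 is lowest in LS13 at 15.4 to 25.2 CPM, Adgrd1 is highest in LS12 and LS17, and Adgra1 is lowest in LS14 and LS17.

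The last comparison asked whether the genes differed between immune and strain backgrounds, with the nude and BALB/c libraries against both C57J libraries in each of 15 classes with at least 50 nuclei in every library. Here a call needed a log2 fold change beyond 0.5 in either direction, again with an adjusted p under 0.05. Of the 27 members, 22 could be tested in at least 1 class, giving 186 gene and class pairs. With edgeR, 0 pairs were called and 21 (11.3%) had an unadjusted p below 0.05. DESeq2 also called 0, with 8 at an unadjusted p below 0.05, and its share over all genes is not given. Over all genes tested, 0.551% of pairs were called by edgeR and 8.29% had an unadjusted p below 0.05. The ligands and partners gave 0 calls by edgeR in 351 pairs, with 29 at an unadjusted p below 0.05. The log2 fold changes of the members ranged from -1.56 to 1.49 with a median of -0.043 and a median SE of 0.285. In LS neurons, the class with the most nuclei, the median was -0.012 over 22 members and -0.0080 over all 18634 genes tested.

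Within 3 classes the libraries lay in different clusters, which bears on the differences given below for them. Of the OLs, cluster 8 held 52.1% of BALB/c nuclei and 4.12%, 2.0% and 3.29% of those of C57J 1, C57J 2 and nude, and cluster 2 held 5.88% against 63.9%, 55.8% and 72.2%. Of the other astrocytes, cluster 1 held 61.3% of BALB/c nuclei against 39.8%, 27.6% and 25.9%, and cluster 0 held 16.5% against 39.9%, 49.5% and 47.5%. Of the Dkk3 astrocytes, subclusters 0 and 5 together held 220 of 252 BALB/c nuclei against 21 of 206, 8 of 242 and 13 of 172. BALB/c thus stood apart from nude as well as from C57J in each of these classes.

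The values nearest to a call are given by gene. Adgra3 in LS neurons was at 15.5, 17.6, 22.5 and 23.1 CPM, nude and BALB/c lying above both C57J libraries, with a log2 fold change of 0.49 ± 0.12 (SE), adjusted p = 0.0983 by edgeR. Adgrf5 in cholinergic neurons, whose values are given above, was lower in nude and BALB/c without overlap, with -1.0 ± 0.29 (SE), adjusted p = 0.268 (edgeR). Adgrl2 in Lhx6 neurons was at 93, 80.7, 65.1 and 59.9 CPM, the C57J values being the higher ones, with -0.48 ± 0.14 (SE), adjusted p = 0.227 (edgeR). Adgrf2 in OLs was at 5.41, 4.82, 12 and 15.1 CPM, with 1.49 ± 0.35 (SE), adjusted p = 0.428 (edgeR). In OL cluster 5, which had 225 or more nuclei in each library, Adgrf2 was at 2.73, 5.32, 11.9 and 17.3 CPM from 2, 4, 6 and 40 UMIs, nude and BALB/c again lying above both C57J libraries. Adgrb1 in OLs was at 84.7, 73.4, 51.6 and 35.4 CPM, with -0.84 ± 0.23 (SE), adjusted p = 0.59 (edgeR), where BALB/c also had the lowest percentages of neuronal Snap25 and Rbfox3, whose part in this difference was not tested. In OL cluster 5 Adgrb1 was at 71, 53.2, 55.7 and 29 CPM. In cluster 8 it was at 48.3, 133, 52.1 and 36 CPM from 7, 9, 5 and 105 UMIs. Nude lay within the C57J range in both. In cluster 2 Adgrb1 was at 93.7, 83.5, 52.3 and 59.5 CPM and in cluster 10 at 84.4, 70.5, 34.3 and 47.1 CPM. There nude and BALB/c lay below both C57J libraries. None of these class differences passed the limits. The log2 fold changes of the most frequent members in LS neurons were 0.0 ± 0.07 for Adgrb3 and 0.03 ± 0.06 for Adgrl3.

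The result depended on 1 library. Leaving out nude makes BALB/c a lone library assumed to vary like the C57J libraries. Pairs were then called in astrocytes, OLs, microglia, Ebf2 and Lhx6 neurons. They came from the genes Adgra3, Adgrb1, Adgrf2, Adgrg1, Adgrg6, Adgrl2 and Adgrl3. The share of all genes called in that fit is not given, so these calls are not read as a result about the members. BALB/c was the deepest library and had the lowest neuronal percentages in glia. Most of the calls fell in OLs and the 2 astrocyte classes, where its nuclei were spread differently over the clusters. The part of these in the calls was not tested. The other calls, of Adgrl2 and Adgrl3 in microglia, Adgrl2 in Ebf2 neurons and Adgra3 in Lhx6 neurons, were in classes of 1 cluster each. Within batch 2, that is without C57J 1, C57J 2 was the only C57J library, and that fit is not read as a result. Without BALB/c, the log2 fold change of Adgrd1 in Ebf2 neurons was -0.73. Without C57J 2, that of Adgra3 in LS neurons was 0.56, and strain then coincided with batch, C57J 1 being the only library of batch 1. Each of these fits left 1 library in a group, so the values are not read as results about the members.

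**Figure D5:**
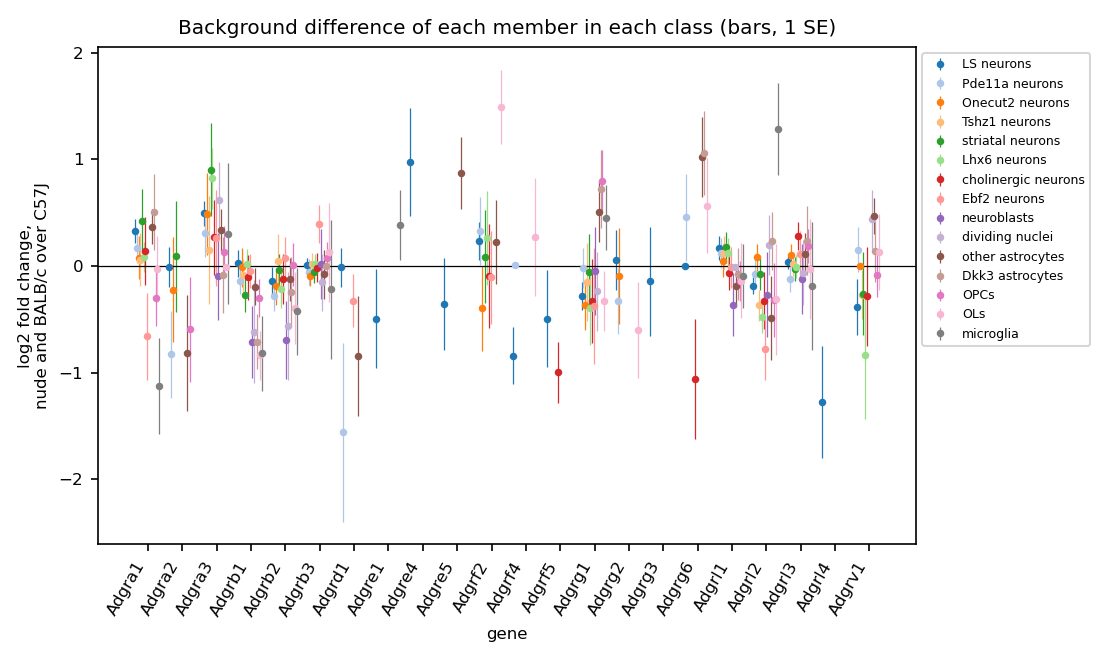
Log2 fold change of nude and BALB/c over C57J for each member in each class in which it could be tested, with bars of 1 SE (none where a difference was too close to 0 to give one) and colours for the classes. Most points of Adgrb3, Adgrl1 and Adgrl3 lie close to 0 with short bars, and the widest bars belong to genes with few UMIs, such as Adgrd1 in Pde11a neurons at -1.56.

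A test of whether the background difference itself varied between classes called 1 of 18 members, Adgrg6 (F = 5.09, edgeR adjusted p = 0.00947), against 0.705% of all genes tested. Adgrg6 was higher in nude and BALB/c in Dkk3 astrocytes, with a log2 fold change of 1.06 ± 0.39 (SE), adjusted p = 0.862 by edgeR, and in other astrocytes at 4.06, 5.49, 7.22 and 10.5 CPM, with 1.02 ± 0.37 (SE), adjusted p = 0.661 (edgeR). Outside subclusters 0 and 5, Dkk3 astrocytes had Adgrg6 at 26.7, 18.5, 27.3 and 62 CPM from 11, 8, 8 and 7 UMIs. Nude lay close to C57J 1 there, and the BALB/c value came from 32 nuclei. In subclusters 0 and 5 it was at 17.7, 60.4, 116 and 50.8 CPM from 1, 1, 3 and 43 UMIs. In cluster 0 of the other astrocytes it was at 3.77, 5.65, 4.46 and 16.1 CPM, in cluster 1 at 3.49, 8.19, 8.35 and 10.9 CPM and in cluster 4 at 5.88, 1.3, 10.5 and 5.74 CPM. BALB/c was highest in clusters 0 and 1, while in cluster 0 nude and in cluster 4 BALB/c lay within the C57J range. In cholinergic neurons it was at 9.07, 8.73, 2.8 and 5.06 CPM, with -1.06 ± 0.56 (SE), adjusted p = 0.668 (edgeR), the C57J values being higher. In LS neurons the 4 values of Adgrg6 were level, at 1.34, 1.59, 1.34 and 1.51 CPM. None of these classes passed the limits by itself. OPCs and Tshz1 neurons had 0 Adgrg6 UMIs in both C57J libraries and 1 to 3 in nude and BALB/c.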

How the data were processed

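The snRNA-seq libraries were prepared by the authors from nuclei of frozen LS tissue with the 10x Chromium 3' chemistry, and reads were aligned to mm10 with Cell Ranger 7.0.1, per the labels. The authors deposited filtered matrices of raw UMI counts for 32285 genes, without normalization. The treatment of intronic reads is not given in the sources used here. The members and the lists of markers and partners were chosen with earlier results of these data known.

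Barcodes with over 200 and under 6000 genes, over 300 and under 50000 UMIs and under 2% mitochondrial UMIs were retained, as in the study, and 6235 predicted doublets were removed (expected rate 0.8% per 1000 nuclei, from 2 simulated doublets per nucleus). The 4 libraries were clustered together on 3000 variable genes and 40 components with 6 neighbours per library (leidenalg 0.10.2, resolution 1). The 27 members, 36 partners, 6 sex-linked genes, mitochondrial genes and 104 genes that differed between strains were left out of clustering. The clustering procedure was settled after several attempts. Clusters were named from markers, and a cluster without a name was left out.

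UMIs were summed per library and class and tested with edgeR 4.0.16 in R 4.3.3 (filterByExpr, TMM, quasi-likelihood F test, Benjamini-Hochberg over all genes tested), with the library as a block for classes and LS clusters. Classes entered with at least 10 nuclei per library, LS clusters and background comparisons with at least 50. The SE is the absolute log2 fold change divided by the square root of F, and fold changes of genes near 0 in the other classes depend on the prior count. The study applied the Wilcoxon rank-sum test to nuclei, whereas the library is the unit here. The edgeR steps were tested on simulated data. DESeq2 1.42.0, no low-count filter, library totals, predicted doublets kept, thinning to 1000 UMIs, stricter quality limits (over 500 genes and 1000 UMIs) and leaving out each library were the alternatives. Thinning left out nuclei under 1000 UMIs, and 98.6% to 99.8% of the nuclei of a library were at or above that depth.

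Every member is named. Library values are given for the class of a member's highest mean where it held at least 10 UMIs and for a called interaction, while LS clusters, clusters within OLs and astrocytes, second classes and near-calls given in full were chosen after their values were seen. Gene positions are those of GENCODE vM21 and promoter windows those of RefSeq, which held 20 of the 27 members. Depth limits each value through its UMIs, which are given where they are few. Intervals cover counting error only.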

Additional observations from a re-analysis of the deposited data

Results flagged for a closer look

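Adgrg6 was singled out because its difference between backgrounds was not the same in all classes. The test of all class by background terms together gave F = 5.09 and an adjusted p = 0.00947 (edgeR, Benjamini-Hochberg over 14891 genes). The 18 members tested gave 4 unadjusted p-values below 0.05. The share of all genes below that limit in this fit is not given, so these are not read as a result about the members. In nude and BALB/c the level was higher in both astrocyte classes and lower in cholinergic neurons, and no class passed the limits by itself. BALB/c nuclei were spread over the clusters of both astrocyte classes in another way than those of the remaining libraries, with 944 of 1540 in astrocyte cluster 1 (730 of 1833, 446 of 1615 and 416 of 1605 in C57J 1, C57J 2 and nude) and 220 of 252 in Dkk3 subclusters 0 and 5, and the part of this in the result was not tested. The call was lost without C57J 1, without C57J 2 and without BALB/c, where F was 3.4, 2.95 and 2.16, respectively. Without nude F fell too, to 2.84, although the gene stayed under the limit of adjusted p. Each of these fits leaves 1 library in a group. The share of all genes called without nude is not given, so that call is not read as support. After thinning to 1000 UMIs Adgrg6 could not be tested. The counts were small outside LS neurons and astrocytes, with 3 to 12 UMIs per library in cholinergic neurons and 0 in both C57J libraries in OPCs, and the part of these low counts in the result was not tested.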

How the results depend on the processing

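No paired analysis was possible because the groups share fewer than 2 replicate numbers. The 0 calls between backgrounds stayed 0 with DESeq2, library totals, predicted doublets, thinning, stricter quality limits and the adjusted p alone. Without the low-count filter there were 2 (Adgra3 in LS neurons and Adgrf2 in OLs), and leaving out 1 library gave 0 to 11, the 11 without nude. The 71 calls between classes became 39 after thinning to 1000 UMIs, when only 234 pairs could be tested, and were 58 to 77 with 1 library left out. DESeq2 shared 61 of the 71 in the same direction. The 24 calls between LS clusters became 15 after thinning, with 110 pairs tested, and were 22 to 25 with 1 library left out. DESeq2 shared all 24. The interaction, with 1 gene, gave 3 without the filter (Adgrl2, Adgrg1 and Adgrg6), 0 after thinning and 0 to 9 with 1 library left out, the 9 without nude. Beyond the fewer pairs tested, the cause was not tested. The shares of all genes called under these alternatives are not given, so their counts are not read as results about the members. Of the values of single genes, 357 kept their direction and their side of the limits, 13 lost a call, 4 gained one and 0 turned. These single-gene values were members in their highest class, the called LS pairs, chosen background pairs and the Adgrg6 interaction. Settings without an adjusted p were left out. The set was picked from these same data, so a kept direction is no independent check. The vascular class, with 12 to 52 nuclei per library, and classes with few UMIs of a gene limit what can be seen.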

Other observations

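Adgrd1 in LS25 was at 8.75, 6.51, 1.15 and 1.57 CPM, from 8, 6, 1 and 2 UMIs, and Adgrd1 in LS4 at 1.94, 2.76, 0.571 and 0.508 CPM, so that both C57J libraries lay above nude and BALB/c in either cluster. Adgrv1 showed the same order in LS25, at 143, 141, 58.8 and 79.1 CPM. These comparisons were chosen after the values were seen, and the difference between backgrounds was not tested within LS clusters. In the LS class as a whole, the log2 fold change of Adgrd1 between backgrounds was -0.01 ± 0.18 (SE), adjusted p = 0.985 (edgeR, Benjamini-Hochberg) and that of Adgrv1 -0.39 ± 0.26 (SE), adjusted p = 0.58 (edgeR, Benjamini-Hochberg).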
